A study of Mus musculus with 12 samples.

Results

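The genes described here encode the proteins that stand between bacterial lipopolysaccharide (LPS) and its signal inside the cell: the co-receptors of TLR4, the adapters that bind its cytoplasmic part, and the IRAK kinases that the adapters recruit. They were chosen by symbol (Cd14, Ly96, Myd88, Tirap, Ticam1, Ticam2, Irak1, Irak2, Irak3 and Irak4), and each symbol matched 1 Ensembl gene, so that they are 10 of the 54532 genes in the deposited table. RNA was sequenced from cells of wild-type mice in 4 groups of 3 libraries. Untreated macrophages were grown from bone marrow and received neither RANKL nor LPS. Untreated osteoclasts were derived from such macrophages with 100 ng/mL RANKL, the cytokine that drives osteoclast formation. LPS-treated macrophages and LPS-treated osteoclasts were the same 2 cell types given 100 ng/mL LPS for 3 h on day 5. The cells of all 4 groups were kept in a source of M-CSF, the growth factor of macrophages. Nothing says that the 3 libraries of a group came from separate cultures or animals, so p-values measure only the spread between these libraries, which may be technical.

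As background, CD14 binds LPS at the cell surface and passes it to MD-2, the product of Ly96, which sits on TLR4 and holds the lipid part of LPS. At the plasma membrane TIRAP brings in MyD88, which assembles with IRAK4 and with IRAK1 or IRAK2 into a complex that activates NF-kB and MAP kinases. From endosomes TRAM, the product of Ticam2, brings in TRIF, the product of Ticam1, which leads to IRF3 and type I interferon. IRAK-M, the product of Irak3, restrains the MyD88 route in myeloid cells. Osteoclasts are large bone-resorbing cells formed by fusion of myeloid precursors.

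Libraries held between 15651489 and 20281104 reads assigned to genes, recovered from the deposited values. These are in FPKM, which counts fragments relative to gene length and to a scale set for each library. The summed level of 8 osteoclast markers lay between 28984 and 31979 FPKM in osteoclast libraries and between 8.26 and 23.4 FPKM in macrophage libraries. The summed level of 8 macrophage markers was 2069 to 2465 FPKM in macrophages and 1694 to 1801 FPKM in osteoclasts. Among these, Mrc1, Cx3cr1 and Fcgr1 were at means of 293, 142 and 45.0 FPKM in untreated macrophages and of 2.57, 0.486 and 0.429 FPKM in untreated osteoclasts. Cd68 went the other way, at 670.2 and 1402 FPKM. Markers of other cell types also differed in level between macrophages and osteoclasts. Summed stromal markers were at 24.5 to 34.1 FPKM in macrophages, with Dcn and Lum at 0, and at most 0.858 FPKM in osteoclasts. Summed neutrophil markers were at 5.62 to 16.4 and at most 1.88 FPKM, with Ly6g and Elane at 0 in untreated macrophages and in both osteoclast groups. Summed B cell markers were at 15.8 to 19.8 and at most 0.134 FPKM. Summed endothelial markers were at 2.57 to 5.06 and 0.172 to 1.55 FPKM. Summed T cell markers went the other way, at most 0.182 FPKM in macrophages and 2.92 to 3.96 FPKM in osteoclasts, nearly all of it Trac, with Cd3g and Cd3d at 0. Some lists also differed with LPS. In macrophages dendritic cell markers went from 0.202 to 0.280 FPKM without LPS to 5.61 to 6.27 FPKM with it, and in osteoclasts from 0.595 to 0.692 FPKM to 1.34 to 1.84 FPKM. The macrophage rise was nearly all Xcr1, at means of 0.150 and 5.31 FPKM, while Flt3 was at 0 there with LPS. In osteoclasts the largest part was Zbtb46, at means of 0.546 and 1.01 FPKM. Endothelial markers in macrophages were at 2.57 to 2.95 FPKM without and 4.93 to 5.06 FPKM with LPS. In osteoclasts they were at 0.172 to 0.391 and 0.773 to 1.55 FPKM. Neutrophil markers were at 5.62 to 8.04 and 6.88 to 16.4 FPKM in macrophages and at 0.247 to 0.699 and 0.569 to 1.88 FPKM in osteoclasts. Osteoclast markers in macrophages were at 8.26 to 12.2 and 19.3 to 23.4 FPKM, with Acp5 at means of 0.950 and 14.6 FPKM. Erythroid markers summed to at most 0.135 FPKM. The part of such cells in the results was not tested. In bulk RNA, fewer cells of a type and less RNA per cell cannot be told apart. Among LPS-treated osteoclasts, replicate 2 was the lowest of the 3 libraries for 12 of 14 genes that LPS is known to induce, and results that it moves are given without it too.

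Differences between groups were tested with limma on log2(FPKM + 1) over 11335 genes, and a gene was called at a Benjamini-Hochberg adjusted p under 0.05. A log2 difference on this scale understates the change of low genes. All 10 genes passed the filter on low values (at least 1 FPKM in at least 3 libraries). Ticam2 passed only through macrophage libraries, so its difference between the cell types was built into the filter, although it is among those counted as differing. LPS in macrophages moved 7 of the 10, where 69.9% of all genes were called. Of these, 6 were higher, against 36.8% of all genes, and 1 was lower, against 33.1%. LPS in osteoclasts moved 4, where 17.7% of all genes were called. All of these were higher, against 11.1% of all genes, and 0 were lower, against 6.59%. Without LPS, 9 of the 10 differed between the cell types, against 77.8% of all genes. In osteoclasts 4 were higher and 5 lower, against 38.8% and 39.0%. With LPS, 8 differed, against 83.9%. In osteoclasts 2 were then higher and 6 lower, against 40.9% and 43.0%. The LPS effect itself differed between the cell types for 7 of the 10, against 56.6% of all genes. The osteoclast effect minus the macrophage effect was above 0 for 1 and below 0 for 6, against 26.6% and 30.0%. With TPM (each library set to the same sum, which also enlarges the values before the 1 is added), 4 were above 0 and 4 below, against 63.3% and 13.9% of all genes. The median of the 10 was then 0.09 in place of -0.56, and that of all genes 0.51. With quantile normalization 2 were above 0 and 6 below, against 36.1% and 24.1% of all genes. The median of the 10 was then -0.46 and that of all genes 0.09. TPM also gave 5 higher and 3 lower for LPS in macrophages, against 15.9% and 70.0% of all genes. It gave 4 and 0 in osteoclasts, against 8.29% and 10.8%, and 2 and 7 between untreated cell types, against 24.3% and 57.0%. For LPS in macrophages and between the cell types, the totals called in either direction with the deposited scaling were close to the share of all genes, while their splits into higher and lower were not in every case. The median log2 difference of the 10 was 0.77 for LPS in macrophages and 0.20 in osteoclasts, where the medians over all genes were 0.02 and 0.01. With and without LPS, macrophage libraries were fully apart for 8 of the 10 genes, against 74.0% of all genes, and for 5 in osteoclasts, against 34.0%. Between the cell types they were fully apart for 9 genes without LPS, against 81.4%, and for 9 with LPS, against 83.6%. The comparisons share libraries with one another and are given side by side.

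**Figure D1:**
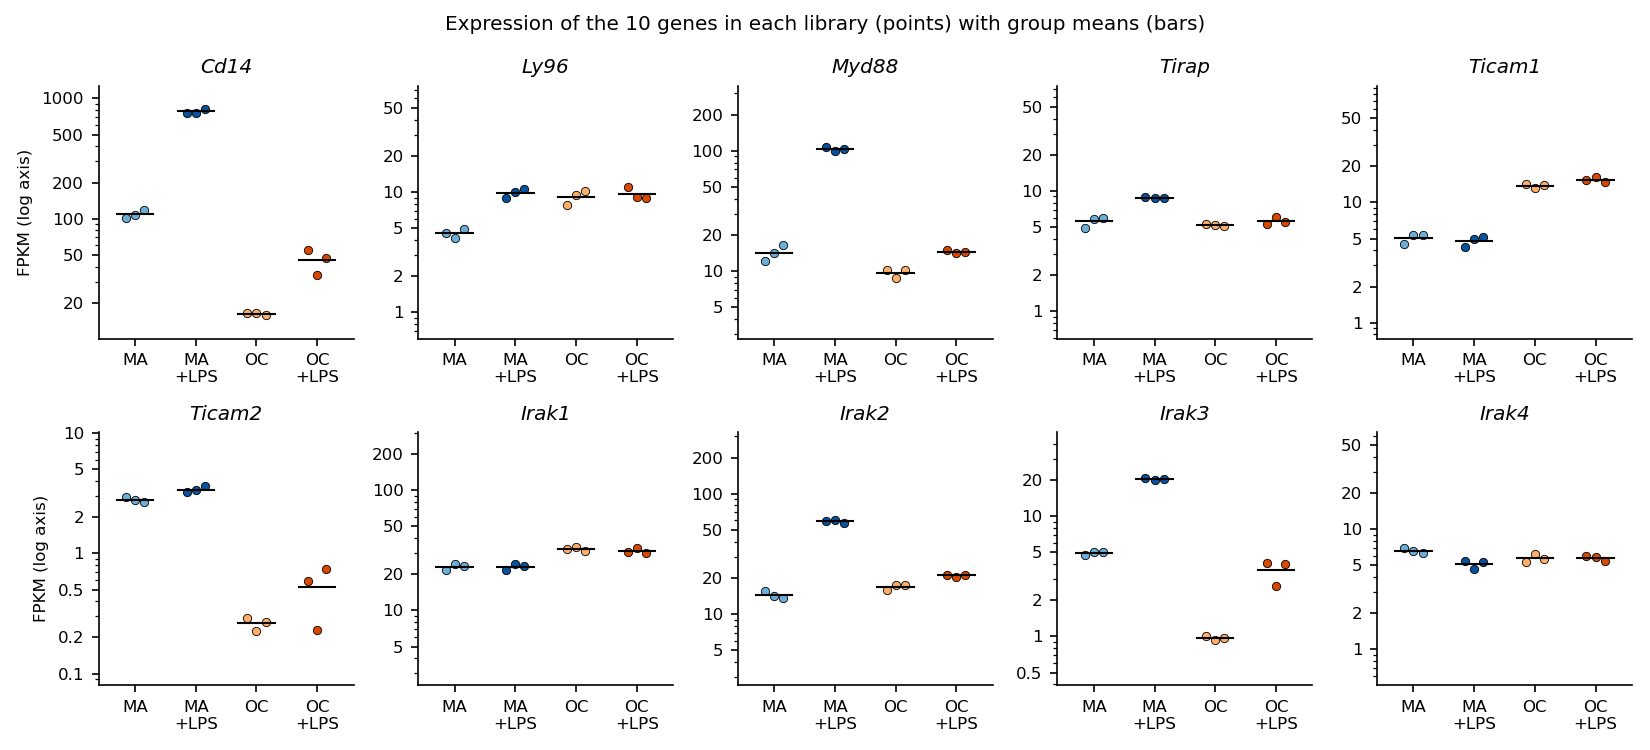
Level of each of the 10 genes in every library, as FPKM on a log axis that spans the same ratio in each panel, for untreated and LPS-treated macrophages (MA) and osteoclasts (OC). Points are libraries and bars group means; Cd14, Myd88, Irak2 and Irak3 stand highest in LPS-treated macrophages, and Ticam1 and Irak1 are higher in both osteoclast groups than in both macrophage groups.

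Cd14 (ENSMUSG00000051439, chromosome 18, 36725067 to 36726798, minus strand, build GRCm38 here and for all genes) was the most abundant of the 10 in macrophages. It was at 102, 108 and 118 FPKM in untreated macrophages and at 763, 764 and 811 FPKM with LPS. Osteoclasts held 16.4, 16.5 and 15.8 FPKM without LPS and 54.6, 34.2 and 46.9 FPKM with it. None of the 4 groups overlapped, and the LPS-treated osteoclasts stayed under the untreated macrophages. LPS raised Cd14 7.15-fold in macrophages as a ratio of means (log2 difference 2.83, SE 0.13, adjusted p 9.79e-10 by limma). In osteoclasts the ratio was 2.79 (1.40, SE 0.13, adjusted p 8.56e-06). Macrophages were 6.71-fold above osteoclasts without LPS and 17.2-fold with it, at log2 differences of -2.67 (adjusted p 1.11e-09) and -4.10 (adjusted p 1.62e-11). The osteoclast LPS effect minus the macrophage effect was -1.43 (SE 0.18, adjusted p 2.48e-05), and -0.83 with TPM and -0.65 with quantile normalization, both still called. Without LPS-treated osteoclast replicate 2, the effect in osteoclasts was 1.58 (SE 0.07, adjusted p 3.33e-08).

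Ly96 (ENSMUSG00000025779, chromosome 1, 16688051 to 16709611, plus strand) encodes the LPS-binding partner of TLR4. Untreated macrophages stood alone, at 4.61, 4.17 and 4.93 FPKM. With LPS, macrophages were at 8.98, 10.0 and 10.5 FPKM. Osteoclasts were at 7.85, 9.45 and 10.1 FPKM without LPS and at 11.1, 9.02 and 8.85 FPKM with it, and these last 3 groups overlapped one another. LPS raised Ly96 2.16-fold in macrophages (log2 difference 0.96, SE 0.10, adjusted p 3.27e-06), at 0.44 with TPM and still called. In osteoclasts the difference was 0.07, with a 95% interval from -0.15 to 0.29 (adjusted p 0.693). Osteoclasts held 2.00-fold more than macrophages without LPS (0.86, SE 0.10, adjusted p 6.54e-06). With LPS the cell types differed by -0.03, with an interval from -0.25 to 0.19. The difference of the LPS effects was -0.89 (SE 0.14, adjusted p 0.000200). Between 100 and 224 reads per library lay behind these values.

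Myd88 (ENSMUSG00000032508, chromosome 9, 119335934 to 119341411, minus strand) encodes the adapter on which the IRAK kinases assemble. Untreated macrophages held 12.1, 14.2 and 16.4 FPKM and LPS-treated macrophages 108, 99.6 and 104 FPKM. Osteoclasts held 10.1, 8.80 and 10.2 FPKM without LPS and 14.9, 14.2 and 14.4 FPKM with it. The LPS-treated osteoclasts thus lay within the range of the untreated macrophages. The ratio of means was 7.32 in macrophages (log2 difference 2.80, SE 0.09, adjusted p 4.26e-11) and 1.49 in osteoclasts (0.54, SE 0.09, adjusted p 0.00116). The difference of these effects, -2.26 (SE 0.12, adjusted p 2.11e-08), was the largest among the 10 genes. Myd88 was 1.46-fold higher in macrophages without LPS (adjusted p 0.000222) and 7.19-fold with it (adjusted p 2.27e-11). Its exons share 290 of 2576 bases, 11.3%, with Acaa1a on the opposite strand. No source says whether strand was used in counting, so reads of the 2 genes cannot be told apart there.

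Tirap (ENSMUSG00000032041, chromosome 9, 35184551 to 35200291, minus strand) encodes the adapter that ties MyD88 to the receptor. The LPS-treated macrophages, at 8.92, 8.66 and 8.72 FPKM, were above all other libraries. Untreated macrophages were at 4.95, 5.86 and 5.90 FPKM. Osteoclasts were at 5.31, 5.20 and 5.12 FPKM without LPS and at 5.30, 6.09 and 5.54 FPKM with it, which overlapped. LPS raised Tirap in macrophages (log2 difference 0.57, SE 0.06, adjusted p 4.98e-06), but with TPM the difference was 0.01 and not called (adjusted p 0.917). In osteoclasts it was 0.10 (interval -0.04 to 0.23, adjusted p 0.343). With LPS, Tirap was lower in osteoclasts (-0.56, SE 0.06, adjusted p 3.92e-06). Without LPS the difference was -0.08 (interval -0.22 to 0.06, adjusted p 0.274), but -0.48 and called with TPM (adjusted p 0.000108), and -0.15 and called when untreated macrophage replicate 1 was left out (adjusted p 0.0331). Exons of Tirap share 9.84% of their bases with Gm39318 and Srpr on the opposite strand.

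The adapters of the interferon route differed between the cell types in opposite directions. Ticam1 (ENSMUSG00000047123, chromosome 17, 56269319 to 56276786, minus strand) encodes TRIF. It was at 4.48, 5.40 and 5.40 FPKM in untreated macrophages and at 4.24, 4.99 and 5.14 FPKM with LPS. Osteoclasts held 14.3, 13.2 and 14.0 FPKM without LPS and 15.3, 16.2 and 14.7 FPKM with it, so every osteoclast library was above every macrophage library. The ratio of osteoclast to macrophage means was 2.71 without LPS (log2 difference 1.29, SE 0.08, adjusted p 9.33e-09) and 3.22 with LPS (1.51, SE 0.08, adjusted p 1.52e-09). LPS effects were not called, with intervals from -0.24 to 0.09 in macrophages and from -0.02 to 0.31 in osteoclasts. With TPM the macrophage effect was -0.69 and called. The difference of the effects was 0.22 and not called (adjusted p 0.101), but 0.77 and called with TPM (adjusted p 0.000136) and 0.29 and called without untreated macrophage replicate 1 (adjusted p 0.0246).

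Ticam2 (ENSMUSG00000056130, chromosome 18, 46557291 to 46574533, minus strand) encodes TRAM, which links TRIF to TLR4. Macrophages held 2.92, 2.76 and 2.66 FPKM without LPS and 3.21, 3.38 and 3.61 FPKM with it. Osteoclasts held 0.290, 0.226 and 0.270 FPKM without LPS and 0.591, 0.231 and 0.739 FPKM with it. Every macrophage library was above every osteoclast library, and the osteoclast groups overlapped through replicate 2 of the LPS-treated one. Means were 10.6-fold higher in macrophages without LPS and 6.53-fold with it. On the log2(FPKM + 1) scale the differences were -1.58 and -1.55, given as a description because of the filter. With voom on recovered reads, which adds no 1 FPKM, they were -3.38 and -2.79. Osteoclast libraries held only 14 to 53 reads of Ticam2. The LPS effect in osteoclasts was 0.25 and not called (adjusted p 0.127), but 0.40 and called without LPS-treated osteoclast replicate 2 (SE 0.07, adjusted p 0.00258). In macrophages it was 0.22 and not called (adjusted p 0.0878), although the libraries did not overlap. That effect was called without the same osteoclast library (adjusted p 0.0101), in a fit of the macrophage groups alone (adjusted p 0.0148) and with quantile normalization (0.27, adjusted p 0.0235), while with TPM it was -0.33 and not called. The difference of the LPS effects was 0.04 and not called (adjusted p 0.852), but 0.75 and called with TPM (adjusted p 0.0174). In GENCODE M21, Ticam2 shares 838 of 5792 exon bases with Tmed7 on the same strand. That length did not turn the deposited values into whole reads, so another gene model lay behind them. The shortest length that did was 3928 bases, and the read numbers given for Ticam2 rest on it. The same held for Cd14, at 1572 in place of 1732 bases. How reads were split with Tmed7 was not tested. Tmed7 was at 18.6 ± 0.391 FPKM in untreated macrophages and 14.5 ± 0.608 FPKM in untreated osteoclasts (SD, n = 3).

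**Figure D2:**
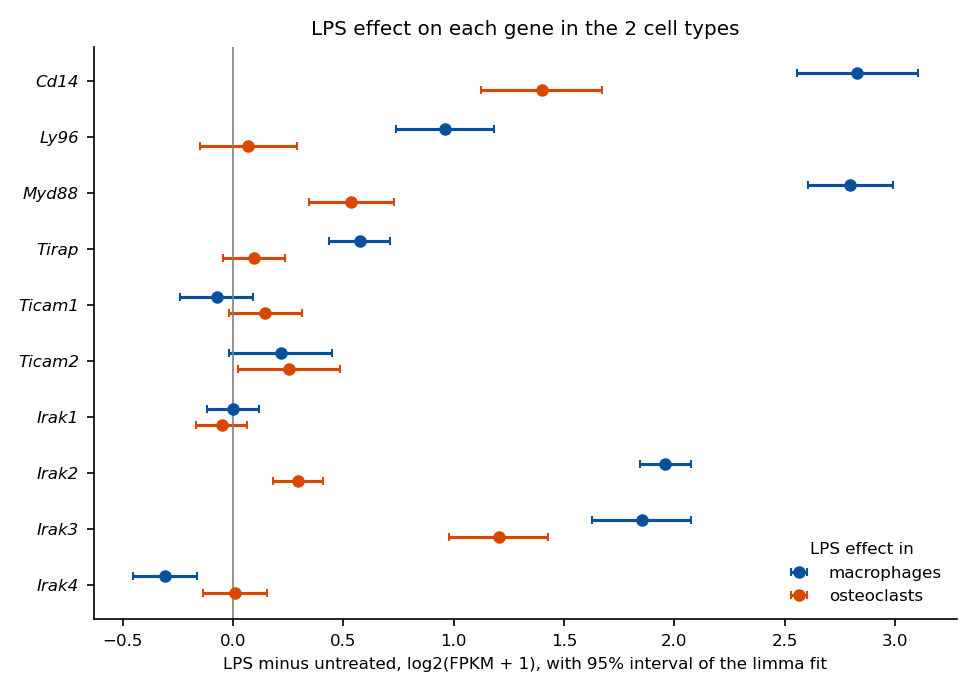
LPS effect on each gene, as the difference of group means of log2(FPKM + 1), in macrophages and osteoclasts; points are limma estimates and bars their 95% intervals. The effects in macrophages reach 2.83 for Cd14 and 2.80 for Myd88, those in osteoclasts 1.40 for Cd14 and 1.21 for Irak3.

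Irak4 (ENSMUSG00000059883, chromosome 15, 94543643 to 94581815, plus strand) encodes the kinase that starts the signal within the MyD88 complex. It lay between 4.64 and 6.92 FPKM in all 12 libraries. Untreated macrophages were at 6.92, 6.62 and 6.29 FPKM and LPS-treated macrophages, all lower, at 5.45, 4.64 and 5.37 FPKM. It was the one gene of the 10 that LPS lowered in macrophages (log2 difference -0.31, SE 0.07, adjusted p 0.00123); with TPM, Ticam1 and Irak1 were called lower as well. Osteoclasts were at 5.34, 6.18 and 5.67 FPKM without LPS and at 5.99, 5.81 and 5.48 FPKM with it, which overlapped. The effect there was 0.01 (interval -0.14 to 0.15), and the difference of the effects was 0.32 (SE 0.09, adjusted p 0.0124). Without LPS, Irak4 was lower in osteoclasts (-0.18, SE 0.07, adjusted p 0.0268). That call was lost when untreated macrophage replicate 1 or 2 or untreated osteoclast replicate 1 or 3 was left out, at -0.15, -0.18, -0.14 and -0.17. With LPS the difference was 0.14 and not called (adjusted p 0.0703), but called at 0.30 with TPM, at 0.18 with quantile normalization and at 0.17 without LPS-treated macrophage replicate 1. Irak4 shares 7.87% of its exon bases with Twf1 on the opposite strand.

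Irak1 (ENSMUSG00000031392, chromosome X, 74013914 to 74023918, minus strand), the kinase that IRAK4 activates, did not pass the test for LPS in either cell type. Macrophages held 21.8, 24.3 and 23.3 FPKM without LPS and 21.7, 24.2 and 23.4 FPKM with it. Osteoclasts, higher in every library, held 32.5, 33.4 and 31.2 FPKM without LPS and 30.6, 32.8 and 30.3 FPKM with it. The intervals of the LPS effect ran from -0.12 to 0.12 in macrophages and from -0.17 to 0.07 in osteoclasts. Osteoclasts were higher by 0.47 without LPS (SE 0.05, adjusted p 5.15e-06) and by 0.42 with it (SE 0.05, adjusted p 1.21e-05). The macrophage LPS effect was called at -0.64 with TPM and at -0.45 with quantile normalization. The untreated cell type difference was 0.07 and not called with TPM.

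Irak2 (ENSMUSG00000060477, chromosome 6, 113638467 to 113695026, plus strand) encodes the family member that sustains the MyD88 signal. It was at 15.6, 14.2 and 13.7 FPKM in untreated macrophages and at 59.9, 60.7 and 57.3 FPKM with LPS. Osteoclasts held 16.0, 17.4 and 17.3 FPKM without LPS and 21.3, 20.4 and 21.2 FPKM with it. The untreated and LPS-treated libraries overlapped in neither cell type. LPS raised Irak2 4.08-fold in macrophages (log2 difference 1.96, SE 0.05, adjusted p 9.94e-12) and 1.24-fold in osteoclasts (0.29, SE 0.05, adjusted p 0.00190). The difference of the effects was -1.66 (SE 0.07, adjusted p 3.31e-09). Without LPS, Irak2 was slightly higher in osteoclasts (0.21, SE 0.05, adjusted p 0.00303), but with TPM it was lower (-0.19, adjusted p 0.00748). With LPS it was 2.83-fold higher in macrophages (-1.46, SE 0.05, adjusted p 6.34e-11).

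Irak3 (ENSMUSG00000020227, chromosome 10, 120141648 to 120202130, minus strand) encodes the inhibitor IRAK-M. Macrophages held 4.75, 5.06 and 4.98 FPKM without LPS and 20.9, 20.1 and 20.2 FPKM with it. Osteoclasts held 1.00, 0.934 and 0.960 FPKM without LPS and 4.11, 2.65 and 3.99 FPKM with it. LPS-treated osteoclasts therefore stayed under untreated macrophages. The ratio of means was 4.14 in macrophages and 3.71 in osteoclasts, and both effects were called, at 1.85 (SE 0.10, adjusted p 7.86e-09) and 1.21 (SE 0.10, adjusted p 5.54e-06). With 1 FPKM added, the effects differed by -0.65 (SE 0.14, adjusted p 0.00230). This difference was -0.26 (adjusted p 0.254) with a pseudocount of 0.1, -0.16 (adjusted p 0.547) with voom on recovered reads, and 0.14 (adjusted p 0.436) with TPM. Without LPS-treated osteoclast replicate 2 the osteoclast effect was 1.36 (SE 0.05, adjusted p 4.37e-09) and the difference of the effects -0.49 (SE 0.06, adjusted p 6.73e-05). Irak3 was 5.11-fold higher in macrophages without LPS (-1.59, adjusted p 2.17e-08) and 5.70-fold with it (-2.24, adjusted p 6.12e-10). Between 58 and 299 reads per osteoclast library lay behind its values.

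Added up, the 4 IRAK genes held 49.2 ± 1.01 FPKM in untreated macrophages and 108 ± 1.60 with LPS, and 56.0 ± 1.71 in untreated osteoclasts and 61.5 ± 0.485 with LPS (SD, n = 3). Shares of this sum within a library do not depend on its scaling. They were chosen with the values known and were not tested. Irak1 was the largest part in untreated cells, at 47.0% ± 2.27 in macrophages and 57.8% ± 1.39 in osteoclasts. With LPS it was 21.4% ± 1.14 of the macrophage sum, where Irak2 was the largest at 54.9% ± 0.896. In LPS-treated osteoclasts Irak1 was still the largest at 50.7% ± 2.12, with Irak2 at 34.1% ± 0.893. Irak3, the inhibitor, made up 10.0% ± 0.330 and 18.9% ± 0.542 in macrophages without and with LPS. In osteoclasts it made up 1.73% ± 0.109 and 5.83% ± 1.32, and LPS-treated replicate 2 was the lowest of its group at 4.30%. Irak4 made up 4.24% to 5.05% in LPS-treated macrophages and 8.98% to 14.1% in all other libraries.

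**Figure D3:**
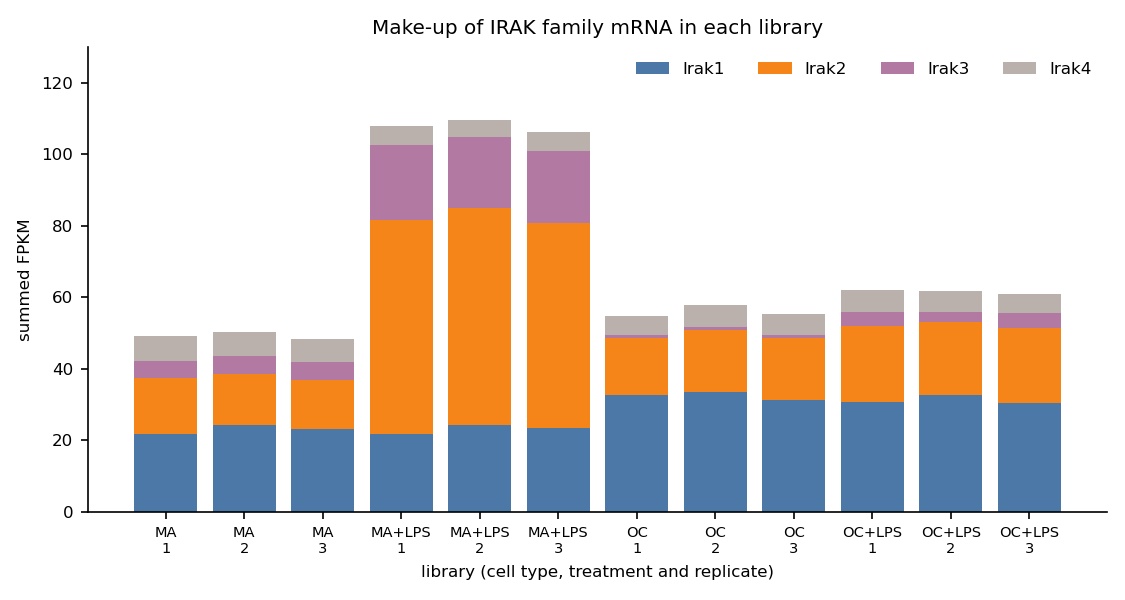
Summed FPKM of Irak1, Irak2, Irak3 and Irak4 in each of the 12 libraries, stacked by gene, for macrophages (MA) and osteoclasts (OC) with and without LPS, replicates 1 to 3. The sums lie between 106 and 109.5 FPKM in LPS-treated macrophages and between 48.2 and 62.0 FPKM in all other libraries.

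Ratios between genes, taken within each library and chosen with the values known, are given as descriptions. The FPKM of Myd88 over that of Ticam1 was 2.69, 2.63 and 3.03 in untreated macrophages and 25.5, 19.9 and 20.3 with LPS. In osteoclasts it was 0.708, 0.667 and 0.728 without LPS and 0.977, 0.873 and 0.975 with it. Ticam1 was thus above Myd88 in every osteoclast library and below it in every macrophage library. Ticam2 over Ticam1, the TRIF route's own adapters, was 0.552 ± 0.0867 in untreated macrophages and 0.0189 ± 0.00160 in untreated osteoclasts (SD, n = 3). Tlr4, the receptor itself, was at 14.4 ± 0.787 and 9.86 ± 0.657 FPKM in macrophages without and with LPS, and at 4.38 ± 0.406 and 2.79 ± 0.445 FPKM in osteoclasts. Ly96 was below Tlr4 in untreated macrophages, with ratios of 0.339, 0.290 and 0.325, and near it with LPS, with ratios of 0.850, 1.08 and 1.08. In osteoclasts it was above Tlr4, with ratios of 1.66, 2.40 and 2.26 without LPS and 4.58, 3.37 and 2.70 with it. Cd14 over Tlr4 was 7.59 ± 0.148 and 79.3 ± 6.18 in macrophages and 3.73 ± 0.409 and 16.6 ± 5.28 in osteoclasts, without and with LPS. Irak3 over Irak4, the inhibitor over the first kinase, was 0.748 ± 0.0545 and 3.98 ± 0.301 in macrophages and 0.169 ± 0.0182 and 0.623 ± 0.147 in osteoclasts.

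**Figure D4:**
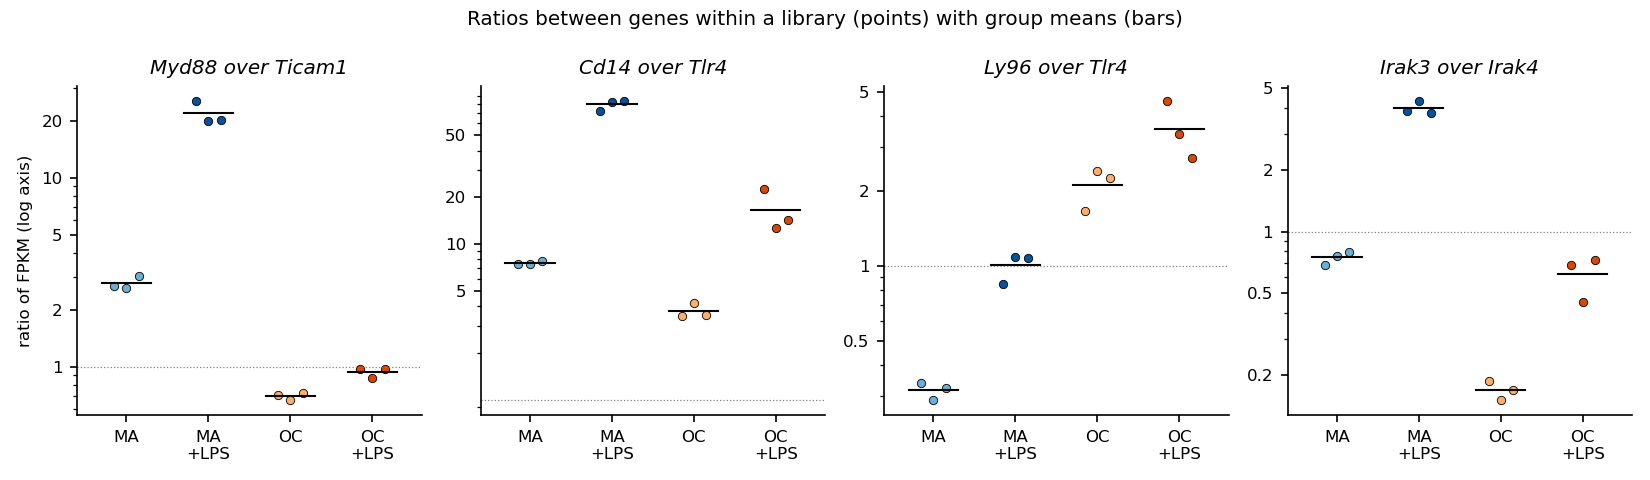
Ratio of FPKM between 2 genes of the same library, on log axes, for Myd88 over Ticam1, Cd14 over Tlr4, Ly96 over Tlr4 and Irak3 over Irak4; points are libraries and bars group means. Myd88 over Ticam1 lies between 19.9 and 25.5 in LPS-treated macrophages and under 1 in all 6 osteoclast libraries.

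Cd14, Myd88, Irak2 and Irak3 were raised by LPS in both cell types, and for the last 3 the bases before their RefSeq start sites are shown for that reason, 5′ to 3′ (RefSeq, build GRCm38.p6). They are chr9:119340042-119340268 on the minus strand for Myd88, which ends 24 bases before the start, chr6:113638217-113638466 on the plus strand for Irak2 and chr10:120202131-120202380 on the minus strand for Irak3. Capitals mark the one motif match found in them, an interferon-stimulated response element core (GAAA, any 2 bases, GAAA), from 40 to 31 bases before the RefSeq start of Myd88.
Myd88: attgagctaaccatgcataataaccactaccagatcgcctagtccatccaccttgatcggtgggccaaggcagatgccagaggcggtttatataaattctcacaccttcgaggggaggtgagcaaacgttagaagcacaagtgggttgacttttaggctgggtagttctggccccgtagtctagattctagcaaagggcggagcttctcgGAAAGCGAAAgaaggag
Irak2: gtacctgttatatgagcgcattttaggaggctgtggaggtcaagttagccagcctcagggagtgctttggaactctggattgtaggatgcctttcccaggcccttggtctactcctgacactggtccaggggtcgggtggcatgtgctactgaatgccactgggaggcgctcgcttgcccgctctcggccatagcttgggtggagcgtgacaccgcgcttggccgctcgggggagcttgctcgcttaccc
Irak3: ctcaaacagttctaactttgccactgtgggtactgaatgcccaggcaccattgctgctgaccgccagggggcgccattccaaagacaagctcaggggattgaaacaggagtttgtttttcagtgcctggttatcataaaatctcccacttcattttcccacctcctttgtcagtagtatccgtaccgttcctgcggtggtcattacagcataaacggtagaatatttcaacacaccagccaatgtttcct
The motifs searched, on both strands of the 250 bases before each start, were this core, the NF-kB consensus and the AP-1 site TGANTCA. Over all 32851 promoter windows, 2.98% held the core, 7.25% the NF-kB consensus and 6.75% the AP-1 site. RefSeq windows were matched for 7 of the 10 genes, the others being Cd14, Ly96 and Ticam2. Among the 7, the NF-kB consensus was found before Irak1, from 21 to 12 bases before one start. The same stretch lay from 18 to 9 bases before a second start of Irak1, so this is 1 site. The AP-1 site was found in none, and no matches overlapped within a window.

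Other genes of the pathway were taken from 4 lists, whose counts are to be read against the shares of all genes called. For LPS in macrophages these were 36.8% higher and 33.1% lower, 15.9% and 70.0% with TPM, and 26.9% and 45.8% with quantile normalization. For LPS in osteoclasts they were 11.1% and 6.59%, and between untreated cell types 38.8% and 39.0%. Of 8 genes for the receptor and LPS handling, 7 were tested. In macrophages 5 were higher and 2 lower with LPS, but 0 and 6 with TPM and 0 and 6 with quantile normalization. In osteoclasts 0 were higher and 2 lower, Tlr4 (log2 difference -0.51) and Cnpy3, a chaperone of TLRs (-0.26). Without LPS, 6 of the 7 were lower in osteoclasts, with a median of -1.43 where that over all genes was 0.00. Ly86 encodes MD-1, the counterpart of MD-2 on the TLR4 homologue CD180. It was at 46.7 ± 3.73 FPKM in untreated macrophages and 0.811 ± 0.251 FPKM in untreated osteoclasts (SD, n = 3). It passed the filter only through macrophage libraries, so its difference between the cell types was built in and is given as a description.

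Of 18 signal transducers below the adapters, 17 were tested. In macrophages 15 were higher and 1 lower with LPS (median 0.62), and 7 and 5 with TPM. In osteoclasts 4 were higher (median 0.07): Map3k8, Ikbke, Irf5 and Tab2, by 1.08, 1.08, 0.74 and 0.52. Their effects in macrophages were 4.37, 2.69, 1.37 and 1.56. Map3k8 is the kinase TPL2, and Ikbke is a kinase of IRF3. Tab1, a partner of the kinase TAK1, was the gene that fell in macrophages, from 8.90 ± 0.671 to 1.78 ± 0.245 FPKM (SD, n = 3), with a log2 difference of -0.16 in osteoclasts (not called, adjusted p 0.200). Between untreated cell types 3 of the 17 were higher and 8 lower in osteoclasts (median -0.06). With TPM these were 3 and 13 (median -0.47), where 24.3% and 57.0% of all genes were. Traf6, the ubiquitin ligase that IRAK kinases engage, was among the higher ones (1.16), and Irf5 (-2.43) and Ikbke (-1.77) among the lower ones. The difference of the LPS effects, osteoclasts minus macrophages, was called below 0 for 14 of the 17 and above 0 for 1, where 30.0% and 26.6% of all genes were. With TPM these were 7 and 5, where 13.9% and 63.3% of all genes were.

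Of 12 negative regulators 9 were tested, with 8 higher and 1 lower with LPS in macrophages (4 and 4 with TPM) and 5 and 1 in osteoclasts. Socs1, Tnfaip3 and Peli1 had LPS effects of 7.32, 6.11 and 4.14 in macrophages and of 2.33, 1.14 and 1.11 in osteoclasts. Socs1 was under 1 FPKM in every untreated library and passed the filter only through LPS-treated ones, so it had to differ. Inpp5d, which encodes the lipid phosphatase SHIP1, fell by 1.77 in macrophages and by 0.25 in osteoclasts. All 14 output genes were higher with LPS in both cell types, with medians of 6.43 and 4.36. Without LPS-treated osteoclast replicate 2 all 14 were still higher in osteoclasts, with a median of 4.56. The median difference of the effects was then -2.51 in place of -2.75. With voom on recovered reads, which adds no 1 FPKM, the medians were 7.87 and 7.29, and the difference of the effects was called for 8 of the genes in place of 14. Cxcl1, Il1b and Ccl5 among them passed the filter only through LPS-treated libraries and so had to differ. Ifnb1 passed only through LPS-treated macrophages, with LPS-treated osteoclasts at 0.539, 0.865 and 0.950 FPKM. Its LPS effect in macrophages and its difference between the LPS-treated cell types were therefore built in and are given as a description. Among targets of NF-kB, Tnf had effects of 4.73 and 4.03, Nfkbiz 5.82 and 3.54, Nfkbia 3.97 and 0.39 and Il1b 9.28 and 2.32 in macrophages and osteoclasts. As ratios of means, without the added 1 FPKM, these were 27.0 and 18.5, 71.2 and 45.3, 15.9 and 1.31, and 3871 and 400. The ratios were 452 and 434 for Cxcl1, 126 and 268 for Cxcl2 and 76.7 and 557 for Ptgs2. Untreated osteoclasts held means of only 0.0622, 0.253 and 0.0254 FPKM of Cxcl1, Cxcl2 and Ptgs2. Ifnb1, which the TRIF route induces, reached 60.2 ± 10.7 FPKM (SD, n = 3) when macrophages received LPS. When osteoclasts did, it reached 0.784 ± 0.217 FPKM, and it was listed at 0 in every untreated library.

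**Figure D5:**
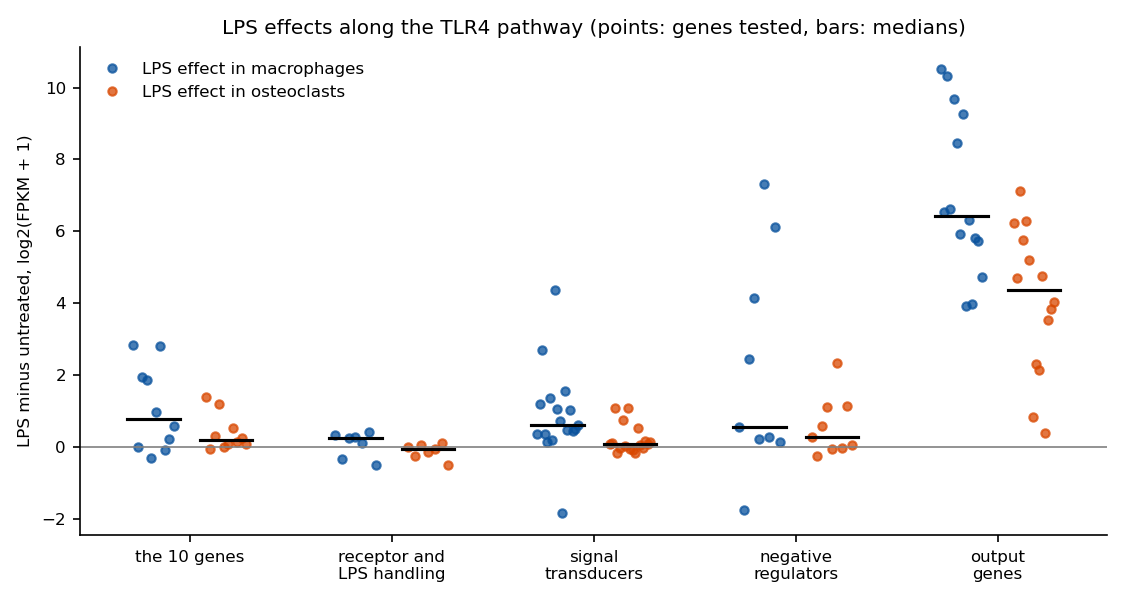
LPS effect in macrophages and osteoclasts, as a difference of log2(FPKM + 1), for the 10 genes and for 4 lists of pathway genes; points are genes tested and bars the medians. The medians in macrophages and osteoclasts are 0.77 and 0.20 for the 10 genes, 0.62 and 0.07 for signal transducers and 6.43 and 4.36 for output genes, the last being 7.87 and 7.29 with voom, without the added 1 FPKM.

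The gene most like each of the 10 was the one at the smallest root mean square distance between log2(FPKM + 1) profiles over the 12 libraries, each centred on its own mean, among about 6429 genes whose mean reached 5 FPKM. For Cd14 it was Srgn, which encodes the proteoglycan serglycin, at 0.12 where the next gene was at 0.20. Srgn was at 30.0 ± 0.941 and 234 ± 10.1 FPKM in macrophages and at 4.51 ± 0.523 and 13.8 ± 3.80 FPKM in osteoclasts, without and with LPS (SD, n = 3). For Irak3 it was Gas7, at 0.11 where the next was at 0.20, and for Myd88 it was Mob3c, at 0.09 where the next was at 0.13. Irak2 lay nearest to Gpd2, the mitochondrial glycerol-3-phosphate dehydrogenase, at 0.08. For the other genes the nearest were Cacybp to Ly96, Cand1 to Tirap, Uck2 to Ticam1, Prdx4 to Ticam2, Ube2q1 to Irak1 and Mettl9 to Irak4. Their distances were 0.12 (next 0.12), 0.06 (next 0.07), 0.07 (next 0.07), 0.11 (next 0.12), 0.04 (next 0.05) and 0.06 (next 0.07) in that order, so that other genes lay nearly as close. Irak2's next was at 0.09. The added 1 FPKM shrinks the differences of Ticam2, at means of 2.78 and 0.262 FPKM in untreated macrophages and osteoclasts. Prdx4 was at 28.3 and 8.38 FPKM there, so its likeness to Ticam2 is one on the log2(FPKM + 1) scale.

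The deposited scaling is relative to the typical gene, and small differences rest on it. TPM shifted the all-gene median to -0.55 for LPS in macrophages, -0.06 in osteoclasts, -0.38 between untreated cell types, 0.12 between LPS-treated ones and 0.51 for the difference of the LPS effects. With quantile normalization the first was -0.14. The share of called genes that were higher went from 52.6% to 18.5% for LPS in macrophages with TPM, from 62.8% to 43.5% in osteoclasts, from 49.9% to 29.9% between untreated cell types, and from 47.0% to 82.0% for the difference of the effects. Under TPM the LPS effects in macrophages were 2.19 for Cd14, 2.21 for Myd88, 1.37 for Irak2, 1.36 for Irak3 and -0.96 for Irak4. Between untreated cells, TPM gave -0.94 for Myd88, -2.40 for Irak3, -2.74 for Ticam2 and 0.99 for Ticam1, each in the direction reported.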

How the data were processed

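Total RNA of 12 libraries was prepared with the NEBNext Ultra RNA kit, per the labels' protocols. The authors deposited FPKM values for 54532 Ensembl genes. The submitters' processing notes name fastp, STAR, featureCounts, DESeq2 and build mm10; versions, roles and annotation are not given in the sources used here. Deposited values came out as whole reads, within 0.02 of a read, for 99.7% of the 25854 genes above 0, with GENCODE M21 exon lengths for 96.8% and otherwise the shortest length that gave whole reads. Their scale followed median-of-ratios size factors within 0.0393%, so it is taken as relative to the typical gene, which no label states.

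Groups come from the sample titles. All 12 libraries were fitted as 4 group means with limma 3.58.1 in R 4.3.3 (variance trend, two-sided) on log2(FPKM + 1), over 11335 genes; the code was tested on simulated data. Alternatives were another pseudocount (0.1), another or no filter on low values, TPM, quantile normalization, fits of the compared groups alone, blocking on replicate number, no variance trend, voom on recovered reads, and each library left out. Named are the 10 genes, genes of the pathway and marker lists, and the nearest gene by profile; which list genes to name was decided with values known. The genes and lists were chosen with earlier results of these data known. Positions and exon overlaps are from GENCODE M21.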

Additional observations from a re-analysis of the deposited data

Results flagged for a closer look

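The LPS effect differed between osteoclasts and macrophages for 7 of the 10 genes by the limma test of the difference itself, where 56.6% of all genes were called, given as the osteoclast effect minus the macrophage effect in log2(FPKM + 1). It was -2.26 for Myd88, -1.66 for Irak2, -1.43 for Cd14, -0.89 for Ly96, -0.65 for Irak3, -0.48 for Tirap and 0.32 for Irak4. With TPM it was 0.03 for Tirap and 0.14 for Irak3, neither called, and of the 10 genes 4 were called above 0 and 4 below, against 63.3% and 13.9% of all genes. The call for Irak3 was also lost with a pseudocount of 0.1 and with voom on recovered reads.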

How the results depend on the processing

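The number of the 10 genes called stayed within 1.5 times of that reported in each of the 5 comparisons under every alternative run. With each library left out in turn, it was 7 to 8 for LPS in macrophages, 4 to 5 in osteoclasts, 8 to 9 and 8 to 9 between the cell types without and with LPS, and 7 to 8 for the difference of the LPS effects. Of 435 values of single genes under alternatives that used all libraries, 416 kept their side of the threshold, 4 lost a call, 10 gained one, and 5 that were called in at least one of the fits turned in direction. Of 600 with 1 library left out, 591 kept their side of the threshold, 4 lost a call and 5 gained one. Some values called in neither fit changed sign, such as Ticam2 for LPS in macrophages (-0.33 with TPM). TPM turned Irak2 to -0.19 between untreated cell types, and turned the difference of the LPS effects to 0.03 for Tirap, 0.14 for Irak3 and 0.52 for Irak1; quantile normalization turned the last to 0.31. With the replicate block, 7, 4, 9, 8 and 7 of the 10 were called in these comparisons and no call changed. Same-numbered libraries deviated from their group means with correlations from -0.0702 to 0.104, and no label says that they share a source. Over all genes, calls went from 7921 to 4851 for LPS in macrophages, from 8822 to 5427 and from 9509 to 5694 between the cell types, and from 6413 to 4018 for the difference of the effects when the filter asked for a mean of 5 FPKM, which tested fewer genes. TPM took the higher and lower calls from 4168 and 3753 to 1797 and 7933 for LPS in macrophages, from 3012 and 3401 to 7175 and 1572 for the difference of the effects, and the higher calls in untreated osteoclasts from 4401 to 2760. Genes lower with LPS in osteoclasts numbered 747, but 1221 with TPM, 1514 with quantile normalization, 463 from the compared groups alone and 452 without untreated osteoclast replicate 3; the cause was not tested. Depth limited Ticam2 most, with 14 to 53 reads per osteoclast library.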
